A study of Mus musculus with 6 samples.

Results

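Expression of 10 genes of the elastic fibre and the fibulin family was followed in coronary endothelial cells (ECs) of the embryonic mouse heart, 10 of the 55416 genes in the count table. They were chosen by name, from earlier results of the comparison of *Wt1KOΔEC* with *ControlΔEC* on these same 6 libraries, so their values in that comparison are a description, no p-value is given for any of them, and calls among them are counted only beside the share over all genes. The RNA came from mGFP+ cells sorted from digested heart ventricles at E15.5, and the labels name the coronary plexus as the region. *ControlΔEC* embryos were Pdgfb(CreERT2/+); Wt1(+/+); R26(mTmG/+) and *Wt1KOΔEC* embryos were Pdgfb(CreERT2/+); Wt1(loxP/loxP); R26(mTmG/+), with 3 libraries of each genotype. Both genotypes therefore carried the *Pdgfb*-driven Cre, which is active in ECs, and the reporter that turns on membrane GFP where Cre has acted, and only the *Wt1KOΔEC* embryos carried floxed *Wt1*. Dams of both were given oral tamoxifen (75 mg/kg) between E11.5 and E13.5, and the crosses gave both genotypes in the same litters. The labels call the libraries biological replicates without saying whether an embryo or a pool of embryos made up each of them, so the spread between them may be partly technical.

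Elastic fibres give arteries and the heart their recoil. Elastin is secreted as soluble tropoelastin, is laid down on a scaffold of microfibrils built from fibrillins, and is crosslinked by lysyl oxidases. Microfibrils also carry the latent TGFβ-binding proteins (LTBPs), which hold TGFβ in the matrix, and EMILIN1, which sits where elastin meets the microfibril. Fibulins bridge these parts: the short fibulins 4 and 5 bring lysyl oxidase and tropoelastin to the microfibril, and the long fibulins 1 and 2 bind elastin and basement membrane proteins. In the wall of large vessels smooth muscle cells make most of the elastin, and ECs contribute to the inner lamina.

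Across the libraries, *Eln* and *Fbln5* differed far more between libraries of the same genotype than between genotypes. *Eln* ran from 50.3 to 1745 CPM (counts scaled to library size by TMM) and *Fbln5* from 29.9 to 565 CPM, and in both genotypes the library labelled replicate 1 was the lowest. *Efemp1* behaved otherwise: 1 count was found in the 3 *ControlΔEC* libraries together and 367 counts in the 3 *Wt1KOΔEC* libraries. The other members lay within 4.55-fold across libraries of a genotype, and *Emilin1* and *Fbln1* were the only ones of them in which the genotypes did not overlap.

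Promoter sequence is shown for the genes on which these values turn, namely *Efemp1*, and *Fbln5* and *Fbln2*, which shared the library order of *Eln*. Each line gives the 250 bases before a RefSeq transcript start (RefSeq, GRCm38.p6), read 5′ to 3′ on the strand of the gene, in lower case. Capitals mark matches to GCGNGGGNG, a motif of the type that WT1 and EGR factors bind, searched on both strands. The *Efemp1* window was chr11:28852955-28853204 (plus strand), that of *Fbln2* chr6:91212514-91212763 (plus strand), and those of *Fbln5* chr12:101819120-101819369 and chr12:101818485-101818734 (minus strand).
Efemp1: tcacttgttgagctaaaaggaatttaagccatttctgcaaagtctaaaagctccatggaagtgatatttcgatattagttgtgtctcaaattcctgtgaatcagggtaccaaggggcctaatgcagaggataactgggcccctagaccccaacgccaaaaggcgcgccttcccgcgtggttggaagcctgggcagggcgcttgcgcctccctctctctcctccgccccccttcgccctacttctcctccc
Fbln2: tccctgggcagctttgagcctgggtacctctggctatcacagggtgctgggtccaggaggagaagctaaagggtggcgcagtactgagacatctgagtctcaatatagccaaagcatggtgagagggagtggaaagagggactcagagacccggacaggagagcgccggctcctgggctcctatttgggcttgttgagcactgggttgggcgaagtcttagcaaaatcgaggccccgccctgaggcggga
Fbln5 window 1: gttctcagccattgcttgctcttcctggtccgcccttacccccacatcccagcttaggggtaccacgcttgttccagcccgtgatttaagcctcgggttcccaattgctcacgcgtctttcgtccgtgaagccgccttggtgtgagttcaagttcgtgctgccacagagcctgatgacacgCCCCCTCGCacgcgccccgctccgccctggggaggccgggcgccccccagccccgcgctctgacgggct
Fbln5 window 2: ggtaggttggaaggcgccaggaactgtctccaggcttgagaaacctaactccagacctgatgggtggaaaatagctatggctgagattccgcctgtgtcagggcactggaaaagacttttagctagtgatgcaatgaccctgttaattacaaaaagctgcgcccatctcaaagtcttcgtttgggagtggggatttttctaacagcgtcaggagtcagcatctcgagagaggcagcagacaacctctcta

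The motif occurred in window 1 of *Fbln5*, starting 69 bases before the transcript start, and had no match in the windows of *Efemp1* and *Fbln2* or in window 2 of *Fbln5*. RefSeq windows were matched for 9 of the 10 members, 16 windows in all, and *Eln* had none. The motif was found in 4 of the 16, which belonged to *Ltbp4* (windows 2 and 3, which overlap each other), *Fbln1* (window 2) and *Fbln5*, beside 10.5% of the 32851 promoter windows of the same length. TATAAA, the TATA box, searched on both strands and sharing no position with the other motif, was in 0 of the 16 windows and in 12.4% of all windows. The windows of *Efemp1*, *Fbln2* and *Fbln5* held 53.6%, 58.8%, and 65.2% and 49.6% G and C, against a median of 52.4% over all windows. A match is a description of these letters and is no evidence of binding.

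Before the members are described, the libraries were checked. They held 26037324 to 44779020 counts, and 3 counts, the most that a count of 0 allows, amounted to 0.0608 to 0.119 CPM; this floor covers counting error only. *Wt1* stood at 145, 109.6 and 149 CPM in *ControlΔEC* and at 14.0, 18.4 and 21.3 CPM in *Wt1KOΔEC* (log2 fold change -2.91, adjusted p = 0.00319, edgeR's quasi-likelihood test, lower in 3 of 3 libraries; two-sided exact permutation p = 0.1, the smallest that 3 libraries against 3 allow). The 8 EC markers summed to 4591 to 5845 CPM in *ControlΔEC* and to 4848 to 5545 CPM in *Wt1KOΔEC*, led by *Pecam1*. Of them 1 was higher and 1 lower in *Wt1KOΔEC* without overlap. Over all genes tested, 10.3% were higher and 8.97% lower in this way. In each list below, the markers not counted as higher or lower overlapped. The 8 arterial markers, led by *Nrp1*, summed to 1494 to 1746 CPM and 1277 to 1654 CPM, and 1 was lower without overlap. Lists kept for other cells summed below the EC list, but not all of their genes are free of EC use. The paper counts *Col1a1*, *Col3a1* and *Dcn* as venous markers and *Rgs5* and *Kcnj8* as arterial ones. It also places *Col1a1* among fibroblast genes. Fibroblast markers, led by *Col3a1*, summed to 679 to 982 CPM in *ControlΔEC* and 1347 to 1554 CPM in *Wt1KOΔEC*, and 5 of the 8 were higher in *Wt1KOΔEC* without overlap. Mural markers, led by *Abcc9*, summed to 469 to 639 CPM and 329.7 to 387 CPM, with 4 of the 10 lower without overlap and the smooth muscle myosin *Myh11* at 0 in 4 of the 6 libraries. Endocardial markers, led by *Nfatc1*, summed to 235 to 325 CPM and 361 to 451 CPM, with 2 of 5 higher. Epicardial markers, led by *Aldh1a2*, reached 11.7 to 18.0 CPM and 17.9 to 54.9 CPM, with 4 of 8 higher. Cardiomyocyte markers, led by *Myh7*, were at 105 to 144 CPM and 77.6 to 186 CPM with *Nkx2-5* at 0 in all 3 *ControlΔEC* libraries. In these bulk libraries a difference in the number of cells of a type and a difference in RNA per cell cannot be told apart.

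**Figure D1:**
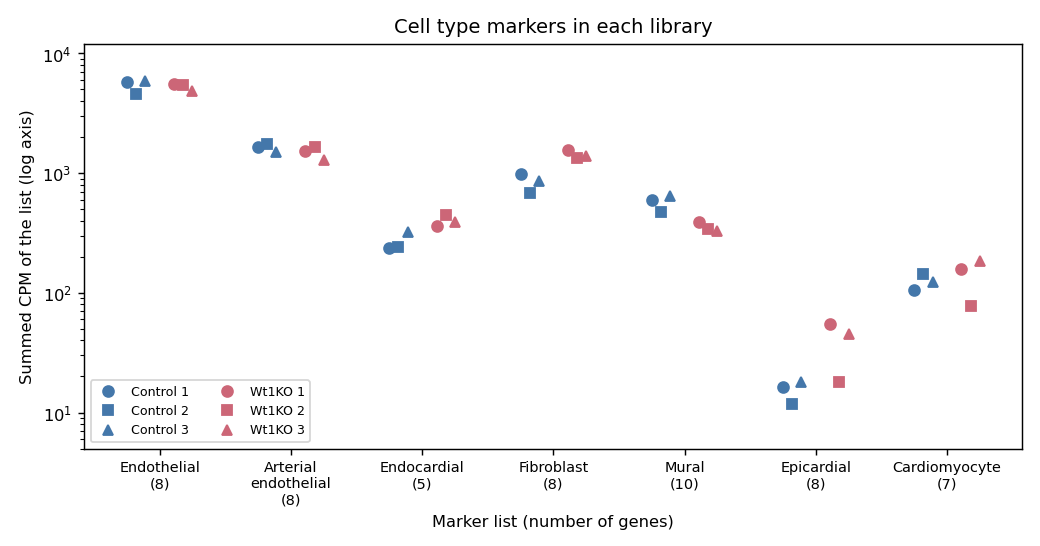
Summed TMM-normalized CPM of 7 marker lists (log axis) in each library, with *ControlΔEC* in blue, *Wt1KOΔEC* in red, and circles, squares and triangles for replicates 1, 2 and 3. EC markers lay between 4591 and 5845 CPM in all 6 libraries, while the fibroblast and endocardial sums were higher and the mural sums lower in the 3 *Wt1KOΔEC* libraries.

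All 10 members had enough counts to be tested (2 or more libraries with 10 or more counts). Compared per kilobase (kb) of exon in *ControlΔEC*, *Eln* had the highest mean at 57.3 ± 44.9 CPM per kb (SD, n = 3), followed by *Fbln2* at 55.0 ± 14.7, *Ltbp4* at 44.8 ± 8.66, *Fbln5* at 28.7 ± 19.4 and *Emilin1* at 27.5 ± 9.23 CPM per kb. *Fbln1* (13.7 ± 4.34 CPM per kb), *Fbn1* (13.3 ± 4.56), *Efemp2* (7.13 ± 0.898) and *Ltbp1* (6.44 ± 2.12) followed, and *Efemp1* was last at 0.00164 ± 0.00285 CPM per kb. Neighbours in this order overlapped between libraries except at the steps from *Fbn1* to *Efemp2* and from *Ltbp1* to *Efemp1*, so neighbours among the first 7 did not differ beyond their spread. Among the 16238 tested genes with an annotated length, the mean levels per kb of *Eln*, *Fbln2* and *Ltbp4* ranked 435, 456 and 572 in *ControlΔEC*. In *Wt1KOΔEC* the order of the means was *Eln*, *Fbln2*, *Emilin1*, *Ltbp4*, *Fbln5*, *Fbln1*, *Fbn1*, *Efemp2*, *Ltbp1* and *Efemp1*, so *Emilin1* stood higher than in *ControlΔEC*.

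**Figure D2:**
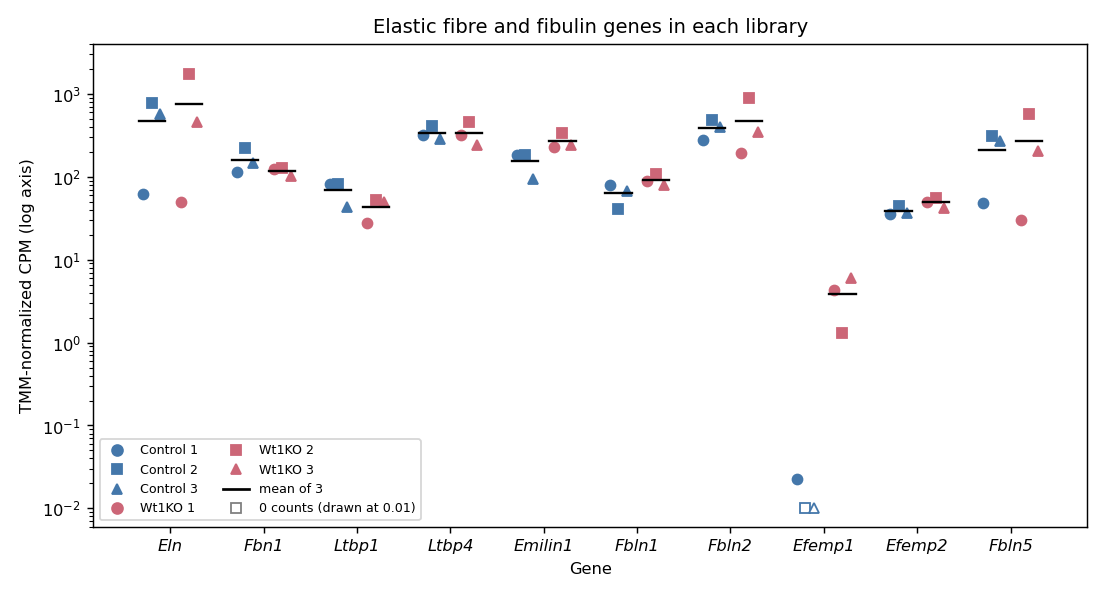
TMM-normalized CPM (log axis) of the 10 members in each library, with *ControlΔEC* in blue, *Wt1KOΔEC* in red, circles, squares and triangles for replicates 1, 2 and 3, bars for means of 3 libraries and open symbols for 0 counts. The circles of *Eln* and *Fbln5* lie far below the other symbols in both genotypes, and *Efemp1* lies between 1.32 and 5.94 CPM in *Wt1KOΔEC* and at or below 0.0224 CPM in *ControlΔEC*.

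*Eln* encodes tropoelastin (chr5:134731445-134776322, minus strand, GRCm39). Its levels were 62.8, 785 and 573 CPM in *ControlΔEC* replicates 1, 2 and 3 and 50.3, 1745 and 458 CPM in *Wt1KOΔEC* replicates 1, 2 and 3. Replicate 1 was the lowest library of either genotype and *Wt1KOΔEC* replicate 2 the highest, above every *ControlΔEC* library, while the other libraries of the genotypes overlapped. The highest library exceeded the lowest 12.5-fold within *ControlΔEC* and 34.7-fold within *Wt1KOΔEC*. The fitted log2 fold change, *Wt1KOΔEC* over *ControlΔEC*, was 0.67 ± 1.07 (SE), and it turned to -0.90 when *Wt1KOΔEC* replicate 2 was left out. *Eln* made up 0.00460% to 0.168% of all counts of a library, and the lowest library still held 1964 *Eln* counts.

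*Fbln5* encodes fibulin 5, a short fibulin that binds tropoelastin and integrins (chr12:101712556-101785429, minus strand, GRCm39). It stood at 47.7, 309.9 and 271 CPM in *ControlΔEC* and at 29.9, 565 and 206 CPM in *Wt1KOΔEC*, again with replicate 1 lowest in each genotype. The spread within a genotype reached 6.5-fold in *ControlΔEC* and 18.9-fold in *Wt1KOΔEC*. Its log2 fold change was 0.35 ± 0.89, and it fell to -0.83 without *Wt1KOΔEC* replicate 2 and to -0.12 without *ControlΔEC* replicate 1. *Fbln2*, a long fibulin of vessel walls and of the developing heart valves (chr6:91189437-91249522, plus strand, GRCm39), was at 276, 481 and 401 CPM and at 194, 884 and 349.9 CPM. Its libraries stood in the same order as those of *Eln*, over a narrower range of 4.55-fold, and its log2 fold change of 0.30 ± 0.47 turned to -0.51 without *Wt1KOΔEC* replicate 2.

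The 3 genes thus had a common library order, from *Wt1KOΔEC* replicate 2 through *ControlΔEC* replicates 2 and 3, *Wt1KOΔEC* replicate 3 and *ControlΔEC* replicate 1 to *Wt1KOΔEC* replicate 1. Of the 8472 genes with a mean of at least 10 CPM, 7 had this order, the 3 members and *Foxk2*, *Slc12a7*, *Sart3* and *Zfp568*, whose highest library was at most 2.47-fold above the lowest. The order was noticed after the values were seen and is given as a description. By the ratio of the highest to the lowest of the 6 libraries, *Eln* ranked 22, *Fbln5* 30 and *Fbln2* 301 among the 8472 genes. The SD of log2 CPM within a genotype, pooled over both and with a pseudocount of 0.5, was 2.30 for *Eln*, 1.85 for *Fbln5* and 0.829 for *Fbln2*, against a median of 0.278 over these genes, and the ranks were 10, 13 and 162. The other 6 members above 10 CPM had SDs from 0.191 (*Efemp2*) to 0.519 (*Ltbp1*).

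**Figure D3:**
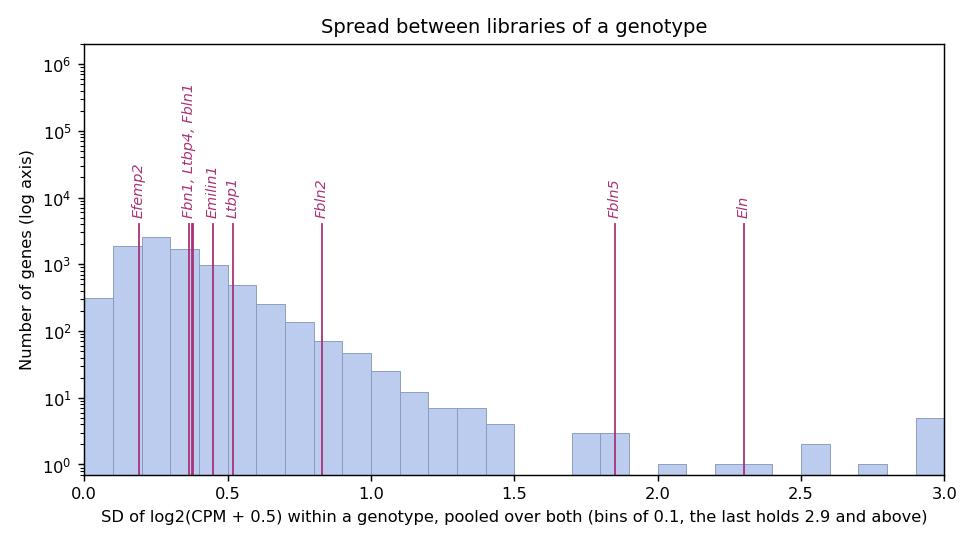
Histogram of the SD of log2(CPM + 0.5) between libraries of a genotype for the 8472 genes with a mean of at least 10 CPM (number of genes on a log axis), with lines at the 9 members that reach this level. *Eln* at 2.30 and *Fbln5* at 1.85 lie in the sparse right tail, and *Efemp2* at 0.191 lies left of the median of 0.278.

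The ratio of *Eln* to *Fbln5* varied less than either gene. Per kb of exon, *Eln* exceeded *Fbln5* 1.16-, 2.24- and 1.86-fold in *ControlΔEC* and 1.48-, 2.72- and 1.97-fold in *Wt1KOΔEC*. The ratio of *Eln* to *Fbn1*, which encodes the fibrillin of the scaffold, ran from 0.602 to 19.9 per kb and was below 1 in both replicate 1 libraries only. *Fbln2* exceeded *Fbln5* 6.03- and 6.75-fold per kb in the replicate 1 libraries and 1.54- to 1.77-fold in the other 4. *Eln* accounted for 4.49%, 28.2% and 27.1% of the summed level of the 10 members per kb in *ControlΔEC* and for 3.74%, 36.1% and 22.4% in *Wt1KOΔEC*. *Ltbp4* was the member with the highest level per kb in both replicate 1 libraries and *Eln* in the other 4. Sums of arterial markers in replicate 1 (1654 and 1528 CPM) lay inside the range of the other libraries of their genotype, and so did the mural sum of *ControlΔEC* (601 CPM), while that of *Wt1KOΔEC* replicate 1 was the highest of its genotype (387 CPM). Fibroblast sums were highest in replicate 1 of each genotype (982 and 1554 CPM) and endocardial sums lowest (235 and 361 CPM, next to 240 CPM in *ControlΔEC* replicate 2). The part of any of these cells in the *Eln* values was not tested.

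**Figure D4:**
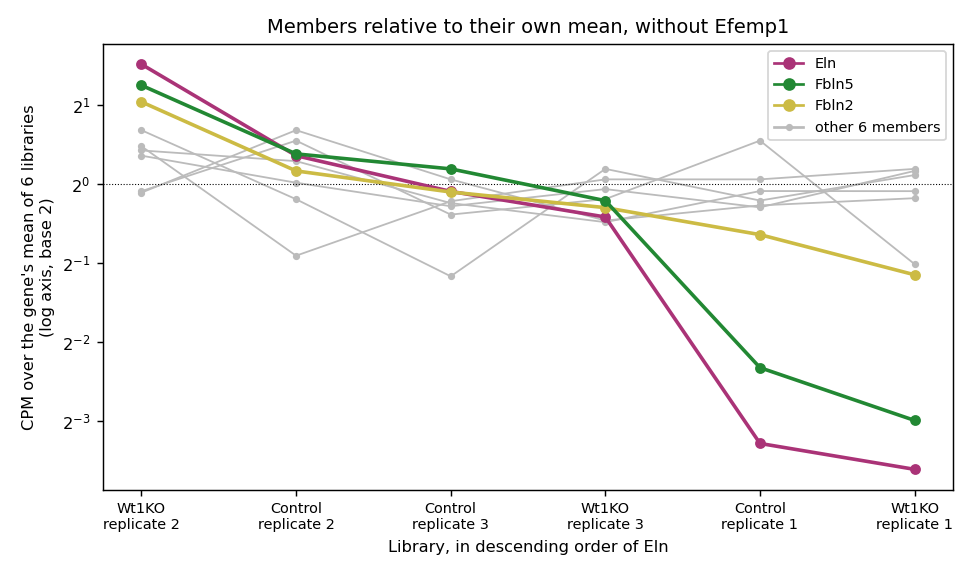
CPM of 9 members divided by their own mean over the 6 libraries (log axis, base 2), libraries in descending order of *Eln*, with *Eln*, *Fbln5* and *Fbln2* in colour, the other 6 in grey and *Efemp1* not drawn. *Eln* falls from 2.85 times its mean in *Wt1KOΔEC* replicate 2 to 0.0821 times in *Wt1KOΔEC* replicate 1, and the grey lines stay between 0.445 and 1.6.

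*Efemp1* encodes fibulin 3, a short fibulin of basement membranes and elastic tissues (chr11:28803150-28876825, plus strand, GRCm39). It had 1, 0 and 0 counts in *ControlΔEC* (0.0224, 0 and 0 CPM) and 170, 47 and 150 counts in *Wt1KOΔEC* (4.35, 1.32 and 5.94 CPM). All 3 *Wt1KOΔEC* libraries lay above the floor and all 3 *ControlΔEC* libraries below it, so the gene passed the filter on low counts through *Wt1KOΔEC* alone. After scaling for library size, the summed counts were 451-fold higher in *Wt1KOΔEC*, with a 95% exact binomial interval of 80.5- to 17871-fold that covers counting error only. The interval leaves out the spread between libraries of a genotype. As the gene was chosen from this comparison, the interval is no test of a difference. The fitted log2 fold change of 8.41 ± 1.41 rests on the 1 count in *ControlΔEC* and on edgeR's prior count, and it sets no bound. It was 8.75 with DESeq2, and 10.11 without *ControlΔEC* replicate 1, the library that held that count. Its level in *Wt1KOΔEC* stayed low, at 0.854 ± 0.518 CPM per kb (SD, n = 3), where it ranked 10240 of 16238 genes.

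The sum of the 8 epicardial markers was higher in 2 of the *Wt1KOΔEC* libraries than in any *ControlΔEC* library. It was 16.4, 11.7 and 18.0 CPM in *ControlΔEC* and 54.9, 17.9 and 45.3 CPM in *Wt1KOΔEC*, and *Wt1KOΔEC* replicate 2 was the lowest of its genotype for both the sum and *Efemp1*. This was not particular to the epicardial list. *Wt1KOΔEC* replicate 2 was also lowest for the fibroblast (1554, 1347 and 1382 CPM) and cardiomyocyte sums (159, 77.6 and 186 CPM). It was not lowest for the EC, arterial, endocardial and mural sums. Of the single epicardial markers 4 were higher in *Wt1KOΔEC* without overlap (10.3% of all genes were), and the other 4 overlapped. The mesothelial gene *Msln* was at 1.32, 0 and 0.416 CPM and at 18.9, 2.75 and 7.76 CPM, and *Lrrn4* was at 3.46, 0 and 0 CPM and at 5.25, 0.421 and 9.42 CPM. *Aldh1a2*, the highest of the list, was at 1.92, 5.9 and 13.3 CPM and at 7.96, 3.65 and 8.79 CPM, and its mean and that of *Dmkn* (0.363 and 0.286 CPM) were not higher in *Wt1KOΔEC*. *ControlΔEC* replicate 3 and *Wt1KOΔEC* replicate 2 had almost equal epicardial sums of unlike make-up, with *Aldh1a2* at 13.3 CPM in the first and 3.65 CPM in the second. The sums do not measure the number of epicardial cells, so no comparison of epicardial content is drawn from them. *Efemp1* was at 0 in *ControlΔEC* replicate 3 and at 1.32 CPM in *Wt1KOΔEC* replicate 2. The part of epicardial or other cells in the *Efemp1* values was not tested.

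*Efemp2* encodes fibulin 4, the short fibulin that recruits lysyl oxidase (chr19:5523975-5532545, plus strand, GRCm39). It was the steadiest of the members, at 35.8, 44.5 and 36.2 CPM in *ControlΔEC* and 49.5, 56.2 and 42.1 CPM in *Wt1KOΔEC*. The genotypes overlapped, since *ControlΔEC* replicate 2 lay above *Wt1KOΔEC* replicate 3, and the log2 fold change was 0.34 ± 0.19. *Fbln1*, a long fibulin of basement membranes and the endocardial cushions (chr15:85090150-85170737, plus strand, GRCm39), was at 80.6, 41.3 and 66.7 CPM in *ControlΔEC* and at 88.3, 108 and 80.6 CPM in *Wt1KOΔEC*. Its genotypes were separated only by less than the rounding of the values printed, between *ControlΔEC* replicate 1 and *Wt1KOΔEC* replicate 3. The log2 fold change was 0.56 ± 0.25 and went down to 0.33 without *ControlΔEC* replicate 2.

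Among the microfibril genes, *Emilin1* (chr5:31070717-31078622, plus strand, GRCm39) was at 182, 184 and 93.8 CPM in *ControlΔEC* and at 228, 336 and 239 CPM in *Wt1KOΔEC*. Every *Wt1KOΔEC* library lay above every *ControlΔEC* library, and the log2 fold change of 0.81 ± 0.27 ranged from 0.55 to 1.06 over the alternatives. The fibroblast and endocardial sums, both higher in *Wt1KOΔEC* without overlap, moved in the same direction as *Emilin1* and *Fbln1*. In *Wt1KOΔEC* replicates 1, 2 and 3 the fibroblast sums were 1554, 1347 and 1382 CPM. The endocardial sums there were 361, 451 and 389 CPM. The part of these or other cells in the values of *Emilin1* and *Fbln1* was not tested. *Fbn1*, encoding fibrillin 1 (chr2:125142514-125349913, minus strand, GRCm39), was at 115, 222 and 145 CPM and at 123, 129 and 101 CPM. *ControlΔEC* replicate 2 stood above the rest, the genotypes overlapped, and the log2 fold change of -0.45 ± 0.24 became -0.14 without that library.

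*Ltbp1*, encoding the LTBP that tethers latent TGFβ to microfibrils (chr17:75312519-75699507, plus strand, GRCm39), was at 82.3, 82.3 and 42.9 CPM in *ControlΔEC* and at 27.8, 52.7 and 49.2 CPM in *Wt1KOΔEC*. Only *ControlΔEC* replicate 3 fell within the *Wt1KOΔEC* range, and the log2 fold change was -0.68 ± 0.31, reaching -0.93 without that library and -0.29 without replicate 1 of both genotypes. *Ltbp4*, whose product works with fibulins 4 and 5 in elastin assembly (chr7:27004086-27037117, minus strand, GRCm39), was at 317, 411 and 285 CPM and at 316, 453 and 241 CPM. The means were 337 CPM in both genotypes, with a fitted fold of 0.998 and a log2 SE of 0.24. *Ltbp4* exceeded *Ltbp1* per kb 5.48- to 9.45-fold in *ControlΔEC* and 6.99- to 16.2-fold in *Wt1KOΔEC*, ranges that overlapped.

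The log2 fold changes of 7 members were positive and those of 3 negative, with a median of 0.35 against -0.027 over all 16296 genes tested. With *Wt1KOΔEC* replicate 2 left out, 4 were positive and 6 negative and the median was -0.39. In 3 members (*Efemp1*, *Emilin1* and *Fbln1*) all *Wt1KOΔEC* libraries lay above all *ControlΔEC* libraries, a state found in 10.3% of the genes tested, in 0 they lay below, as in 8.97% of genes, and in 7 they overlapped. A DEG was defined as a gene whose log2 fold change exceeded 0.58 in size and whose adjusted p-value was below 0.05. No member (0 of 10) was a DEG with edgeR, which called 0.0736% of all genes, or with limma-voom, which called 0.0491%. DESeq2 called 1 member, *Efemp1*, beside 3.68% of all genes. *Efemp1* was also the member called by edgeR and DESeq2 when genes with low counts were kept, fits that called 1.21% and 3.09% of genes. An unadjusted p under 0.05 with the same fold limit was met by *Emilin1* and *Efemp1* and by 10.1% of genes. Because the members were picked from this comparison, nothing is read from these shares.

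Other genes of the elastic fibre pathway, 54 in number, were examined by role. This list too was written with earlier results of these data known. Its calls, p-values and shares are therefore no independent test, and no enrichment is read from them. Of the 52 that could be tested, 0 were DEGs with edgeR and 0 with limma-voom, 12 met the unadjusted p and fold limit (10.1% of all genes did), and the lowest adjusted p was 0.114 (*Mfap4*, edgeR). DESeq2 called 7, *Dcn*, *Hspg2*, *Loxl1*, *Loxl2*, *Mfap2*, *Mfap4* and *Mmrn1*, beside 3.68% of all genes, and edgeR without the low-count filter called 5 (1.21% of all genes), *Dcn*, *Loxl2*, *Mfap2*, *Mfap4* and *Mmrn1*. Positive and negative log2 fold changes were equally many at 26 each, and 10 genes were higher and 3 lower without overlap, as were 10.3% and 8.97% of all genes. The median log2 fold change was 0.02.

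The microfibril proteins of this list, 10 genes, had 9 positive log2 fold changes and 5 without overlap, all higher (10.3% of all genes were). Of these 5, *Emilin3* passed the filter on low counts through *Wt1KOΔEC* alone and reached 0.899 CPM at most. *Ltbp2* was separated only by 3.88 CPM in *ControlΔEC* replicate 3 against 3.94 CPM in *Wt1KOΔEC* replicate 1. No shift of the group is read from the count. Fibroblast and endocardial marker sums were higher in *Wt1KOΔEC* beside them, and the part of these cells was not tested. *Mmrn1*, encoding an EMILIN family protein, averaged 21.4 ± 7.75 CPM in *ControlΔEC* and 67.6 ± 35.9 CPM in *Wt1KOΔEC* (SD, n = 3; log2 fold change 1.66 ± 0.41, adjusted p = 0.191 with edgeR and 0.00266 with DESeq2). *Mmrn2*, the EC-specific member of that family and the highest gene of the group per kb, was at 429 ± 31.9 and 582 ± 120.4 CPM (log2 fold change 0.44 ± 0.18, adjusted p = 0.348 with edgeR). *Mfap4* and *Mfap2*, which encode microfibril-associated proteins, had log2 fold changes of 1.46 ± 0.29 and 0.92 ± 0.19.

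All 5 crosslinking enzymes had positive log2 fold changes, 3 of them without overlap (10.3% of all genes were higher in this way), and DESeq2 called 2, beside 3.68% of all genes. The sign of *Loxl4* carries little, at 0.41 ± 1.68 and at most 1.31 CPM in any library. *Loxl2* was separated only by 28.6 CPM in *ControlΔEC* replicate 3 against 29.1 CPM in *Wt1KOΔEC* replicate 3. *Loxl2* was at 21.9 ± 6.01 CPM in *ControlΔEC* and 52.5 ± 20.5 CPM in *Wt1KOΔEC* (log2 fold change 1.26 ± 0.34, adjusted p = 0.209 with edgeR and 0.0140 with DESeq2), and *Loxl1*, the lysyl oxidase most closely tied to elastin, was at 2.65 ± 1.18 and 10.5 ± 3.99 CPM. *Lox* itself had a log2 fold change of 1.01 ± 0.62, from 6.39, 8.68 and 22.5 CPM in *ControlΔEC* and 7.68, 39.4 and 28.6 CPM in *Wt1KOΔEC*. As in *Eln*, replicate 1 was its lowest library in each genotype and *Wt1KOΔEC* replicate 2 its highest. *Mfap5* shared this, while no other crosslinking enzyme had replicate 1 lowest in both genotypes. Of the proteoglycan partners, *Dcn*, which is also on the fibroblast list, was at 33.6 ± 12.6 and 65.7 ± 9.56 CPM (log2 fold change 0.97 ± 0.29), and *Hspg2*, encoding the basement membrane proteoglycan perlecan, was at 1143 ± 344 and 695 ± 128 CPM (log2 fold change -0.72 ± 0.23). Fibroblast and endocardial marker sums were higher in *Wt1KOΔEC* beside the crosslinking enzymes and *Dcn*, and the part of these cells was not tested.

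Receptors, cargo and proteases of elastic fibres were mixed. The 9 integrin genes had 3 positive and 6 negative log2 fold changes, with 0 DEGs in edgeR, and the highest of them, *Itgb1*, was at 1251 ± 245 and 1176 ± 33.2 CPM (log2 fold change -0.09 ± 0.17), and *Itgb3* had -0.63 ± 0.41. Among the 5 genes of LTBP cargo and its anchors, *Lrrc32* was at 75.9 ± 25.4 and 70.0 ± 0.626 CPM (log2 fold change -0.12 ± 0.24) and *Tgfb2* had 0.75 ± 0.39. In the elastin receptor complex *Ctsa* led, with -0.27 ± 0.20. Of the 6 tested elastin-cutting proteases *Mmp2* had the highest mean per kb (64.9 CPM per kb, next to 62.4 for *Ctsl*) and a log2 fold change of 0.18 ± 0.20, and *Ctsk*, cathepsin K, was at 12.5 ± 6.56 and 26.2 ± 6.52 CPM (1.06 ± 0.38, adjusted p = 0.294 with edgeR). The ADAMTS and ADAMTS-like genes, 8 in number, had 2 positive and 6 negative values, with *Adamts10* at -0.66 ± 0.26. Of the distant fibulin family members, *Hmcn1* (99.3 ± 9.24 and 69.9 ± 9.06 CPM, -0.51 ± 0.17, adjusted p = 0.261 with edgeR) was lower without overlap. *Hmcn2* reached 0.983 CPM at most and was at 0 in every *Wt1KOΔEC* library. It passed the filter on low counts through *ControlΔEC* alone, which fixed its negative sign. *Hmcn2* was among the pathway genes that met the unadjusted p and fold limit.

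**Figure D5:**
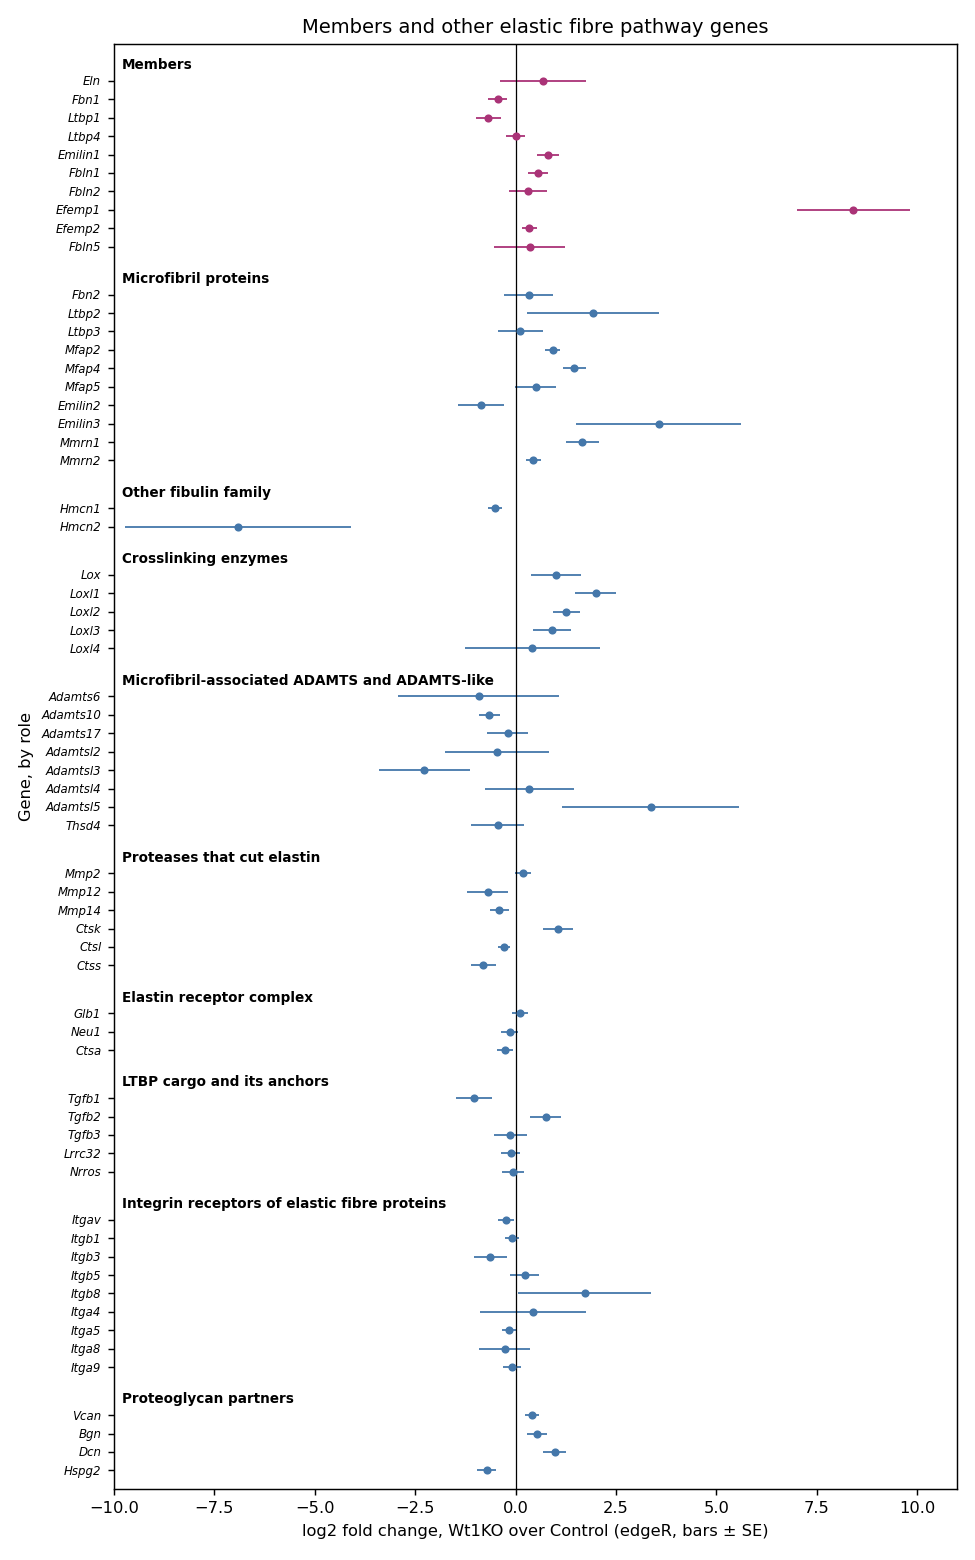
Log2 fold changes of *Wt1KOΔEC* over *ControlΔEC* from edgeR with bars of 1 SE, for the 10 members (purple) and the 52 tested pathway genes by role (blue). *Efemp1* at 8.41 rests on 1 count in *ControlΔEC* and on the prior count. The values and wide bars of genes at 0 counts in a genotype, such as *Hmcn2*, depend on the prior count. The 5 crosslinking enzymes all lie right of 0, *Loxl4* with a bar that crosses 0.

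Some reads may not be assignable to a member alone, though no reads were examined. The overlaps given here are those of GENCODE vM39 and were not checked in the annotation used for counting. Exons of *Eln*, *Fbn1* and *Ltbp4* overlap annotated noncoding genes on the opposite strand, over 423 and 2442 bases for *Eln* and *Fbn1*, and those of *Efemp2* overlap *Mus81* over 173 bases. The counting is not stated to use strand, so reads from these stretches may not have been told apart. *Ltbp4* has 37 and *Efemp2* 35 annotated transcripts, and gene totals do not show which were made.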

How the data were processed

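RNA of mGFP+ sorted ECs was sequenced from 3 *ControlΔEC* and 3 *Wt1KOΔEC* libraries after SMART-seq2 amplification. The deposited values are expected counts per gene, whole numbers without normalization, which the authors made with STAR 2.7.8a and RSEM 1.3.0. The methods name GRCm39 and GENCODE vM27 and the submitters' processing notes name GRCm38, so the build is uncertain. The notes also name DESeq2 1.18, the study's own test. Amplified reads carry no molecular identifiers, so counting intervals treat each count as a molecule.

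The comparison was fitted with edgeR 4.0.16 in R 4.3.3 (TMM, quasi-likelihood F test, Benjamini-Hochberg over 16296 genes that had 10 or more counts in 2 or more libraries), and an SE is the log2 fold change divided by the root of its F statistic. DESeq2 1.42.0, limma-voom (limma 3.58.1), RLE and library size scaling, other filters and call rules, the replicate block and leaving out each library were alternatives. DESeq2 without the filter and leaving out replicate 1 of both genotypes were added after the data were seen. Genotype and replicate came from the sample labels. Levels per kb used merged exons of GENCODE vM39 on GRCm39, promoter windows were RefSeq's on GRCm38.p6, and no coordinate was converted. Replicate pairs of a genotype differed by more than counting noise. Steps were tested on simulated counts.

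The members and lists were chosen with earlier results of these data known. All 10 members are named; of the pathway list, the genes with the highest level per kb and the largest change per role (mean of at least 10 CPM), and of each marker list the highest gene and genes at 0 in a group. *Mfap2*, *Mfap4*, *Mfap5*, *Emilin3*, *Ltbp2*, *Lox*, *Loxl1*, *Loxl4*, *Hmcn2*, *Adamts6*, *Adamtsl2*, *Adamtsl4*, *Adamtsl5*, *Ctsl*, *Dmkn*, *Msln*, *Lrrn4*, *Myh11*, *Col1a1*, *Rgs5*, *Kcnj8* and the genes with the library order of *Eln* were named after their values were seen.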

Additional observations from a re-analysis of the deposited data

How the results depend on the processing

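Of the 16296 genes tested, edgeR called 12 DEGs, and the count was 599 with DESeq2, 759 with DESeq2 on all genes with a count, 296 with edgeR without the low-count filter, 1652 with an unadjusted p, and 2 (without *Wt1KOΔEC* replicate 3) to 37 (without *ControlΔEC* replicate 3) with single libraries left out, each of which moved the count by over 1.5 times. Without replicate 1 of both genotypes, chosen after the values were seen, edgeR called 0 genes and 1238 met the unadjusted p and fold limit, and *Wt1* had a log2 fold change of -2.70 (adjusted p = 0.204, edgeR). Pathway genes called rose from 0 to 7 and 6 with DESeq2 with and without the filter, 5 with edgeR without the filter and 12 with an unadjusted p; members called rose from 0 to 1, 1, 1 and 2. The members' median log2 fold change ranged from -0.39 to 0.63 with a library left out. With a library left out, *Lrrc32* ranged from -0.35 to 0.12, reversing without *ControlΔEC* replicate 1 and without both replicate 1 libraries, and *Itgb1* ranged from -0.24 to 0.03, reversing without *ControlΔEC* replicate 3; the cause was not tested. With library size alone as the scaling, the median of all genes shifted by -0.15 and that of the members was 0.19, with 7 of 10 positive. Without division by length, 5 of the 10 members held their place in the order of levels. Replicate numbers are shared by the genotypes, but deviations of same-numbered libraries correlated at 0.0514, 0.0449 and 0.0316, each library best with its own number. These are weak, and no label says that a number marks a shared litter, so whether the libraries are paired is not known; with the replicate block edgeR called 5 DEGs and *Fbln5* had a log2 fold change of -0.07. Depth limits *Efemp1* in *ControlΔEC*, where levels under the floor of 3 counts were not detectable.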
